A study of Mus musculus with 8 samples.

Results

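Ribosomal protein genes encode the proteins that, together with ribosomal RNA, build the cytosolic ribosome. They were examined here by RNA sequencing of chondrocytes, the cells of cartilage, taken directly from the sternum. A gene was taken as a member when its row was marked as coding and its name was Rpl or Rps followed by a number, with an optional a, x or l, or was Rpsa, Rplp0, Rplp1 or Rplp2. This rule used names and no measured value, and it chose 79 of 16432 listed genes, of which 46 carry the name of a large-subunit protein, 30 that of a small-subunit protein and 3 that of a paralogue (Rpl3l, Rpl39l and Rps27l). Of the 46, the row named Rpl24 holds another gene, as described with the levels, which leaves 45.

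The cells came from C57BL/6 mouse embryos at embryonic day 18.5 in 3 groups. Col2a1Cre;Idh1 fl/+ cells (3 libraries, called Cre-Idh1) carry both a Cre recombinase under the Col2a1 promoter, which is active in cartilage, and 1 floxed Idh1 allele. The series title calls them cells that express mutant Idh1. Col2a1Cre cells (3 libraries, called Cre controls) carry the Cre without the floxed allele, and Idh1 fl/+ cells (2 libraries, called floxed controls) carry the floxed allele without the Cre, so neither control group combines the pair. Where the design text gives fl/fl for the floxed allele, the fl/+ of the sample labels was kept. No source used here says whether a library is 1 embryo or a pool, so p-values measure only the spread between these libraries, which may be technical in part.

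A ribosome holds a single copy of nearly every one of its proteins, and cells make these proteins in step with growth. Their mRNAs are known for a run of pyrimidines at the very start, the 5′ terminal oligopyrimidine tract, through which the kinase mTORC1 and the RNA-binding protein LARP1 control their translation. The transcription factor MYC is known to raise the output of genes for ribosomal proteins and for ribosome assembly. In growing cartilage, chondrocytes spend much of their protein synthesis on matrix proteins such as collagen II.

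The 79 genes spanned a wide range of levels in the 5 control libraries. The unit is the authors' normalized count, a read count divided by a library's size factor. The mean of the controls ran from 5.73 normalized counts for Rpl3l, a paralogue of Rpl3 known from skeletal and heart muscle, to 37562 for Rpl4, which lines the exit tunnel of the large subunit. It was at least 1000 for 48 genes and under 100 for 10. Per kilobase of coding sequence, the highest levels were those of Rplp1 (41587 normalized counts per kb), Rpl41 (32398), Rps3 (31782) and Rpl13a (31017). The lowest per coding kilobase were those of Rpl3l (4.69), Rpl39l (71.2), Rpl23a (74.9), Rps16 (77.0) and Rps13 (92.3). These values divide the reads of the whole mRNA by its coding length, and Rpl41 had 4175 normalized counts per kilobase of mRNA. The members differed by orders of magnitude in these counts, and the 2 lowest, Rpl3l and Rpl39l, are paralogues.

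Ribosomal protein genes have many processed pseudogenes, and a read that fits several places may be dropped or split by the counting. For each member the share of 50-base windows of its mRNA found in no other annotated transcript was therefore computed. The median share was 51.9%, and 35 members had under 50%. Rps27, whose protein is a small-subunit zinc-finger protein, had 1.35%, Rpl9 had 6.68% and Rpl10 had 7.87%, while Rps3 had 97.0%. Across 78 members, all in the same libraries, the control level per kilobase of mRNA and this share had a Spearman rho of 0.28, given as a description. Levels between members are therefore levels of assigned reads, and the part of shared sequence in them was not tested.

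**Figure D1:**
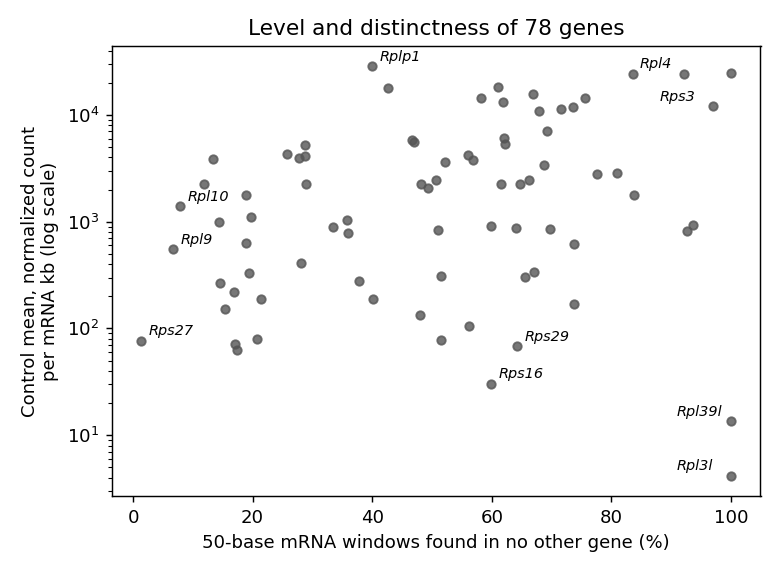
Mean normalized count of the 5 control libraries per kilobase of mRNA (log scale) against the percent of 50-base mRNA windows found in no other gene, 1 point per gene for 78 genes. Rps27 sits at the far left with 1.35% distinct windows, and Rpl3l and Rpl39l lie at the bottom although all their windows are distinct.

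The row named Rpl24 has a gene ID that belongs to another gene. The ID is that of the neighbouring gene Zbtb11 in GENCODE M21, so the row's values are not those of the large-subunit protein. The symbols of the other 78 rows matched their IDs. The row named Rpl24 gave 1865, 1856 and 1265 in the Cre-Idh1 libraries, 1685, 1588 and 1726 in the Cre controls and 1595 and 1689 in the floxed controls. Cre-Idh1 replicates 1 and 2 lay above every control and replicate 3 below, and the row passed the test in none of the comparisons. It is left out of the plots by gene and of the medians by library, but it is counted among the 79 rows in the levels and in the share of reads. Without it 47 members had a control mean of at least 1000 and 10 a mean under 100.

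To show the sequence feature for which these mRNAs are known, the bases around the annotated start of transcription are given for 6 members. RefSeq start sites on GRCm38.p6 were found for 59 of the 79 symbols. Each line runs from 10 bases before the start to 20 from it, 5′ to 3′ on the gene's own strand, and capitals mark the longest run of pyrimidines (C or T).
Rpl13a, chr7:45128726-45128755, minus strand: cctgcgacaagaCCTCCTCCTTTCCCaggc
Rplp2, chr7:141447641-141447670, plus strand: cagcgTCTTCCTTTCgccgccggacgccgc
Rpl12, chr2:32961702-32961731, plus strand: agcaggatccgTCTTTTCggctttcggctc
Rpl15, chr14:18270967-18270996, minus strand: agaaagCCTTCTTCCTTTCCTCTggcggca
Rps27, chr3:90213629-90213658, minus strand: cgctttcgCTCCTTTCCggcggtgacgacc
Rpl10, chrX:74270806-74270835, plus strand: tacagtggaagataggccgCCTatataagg
Rpl13a, Rplp2 and Rpl12 are shown because their mRNA rose in both comparisons described next. Rpl15 and Rps27 did not pass the test, and Rpl10 was lower in every Cre-Idh1 library than in every control. The run was 14 bases in Rpl13a, 10 in Rplp2, 7 in Rpl12, 17 in Rpl15, 9 in Rps27 and 3 in Rpl10. A run of at least 8 was present at 21 of the 59 members (35.6%) and at 11.1% of 26966 other symbols. Members with such a run rose in 10 of 21 cases against the Cre controls (median log2 fold change 0.43), and those with a shorter run in 15 of 36 (median 0.43), beside 9.8% of all genes tested. Against the floxed controls the counts were 4 of 21 (median 0.47) and 10 of 36 (median 0.47), beside 7.47% of all genes. The difference between the classes was not tested. No match in this window says only that these letters are absent from it, since the annotated start may lie a few bases off.

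Over the 300 bases from 250 before to 50 after the start, searched on both strands, CCGGAAG (a form of the ETS-factor and GABP motif) stood at 40.7% of the members and 9.05% of the other symbols. AAGATGG, the core of the YY1 motif, stood at 13.6% and 6.46%. GGGCGG, the GC box, stood at 57.6% and 35.9%, and TATAAA, the TATA box, at 8.47% and 14.2%. These are matches of letters and no measured binding.

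Ribosomal protein mRNA took a larger share of the assigned reads in the Cre-Idh1 libraries than in any control. The members took 1.11%, 1.06% and 1.34% of the reads in the 3 Cre-Idh1 libraries, 0.815%, 0.852% and 0.869% in the Cre controls and 0.826% and 0.751% in the floxed controls. Each Cre-Idh1 library lay above each control, and Cre-Idh1 replicate 3 was the highest of all. The means were 1.17% ± 0.15 (SD, n = 3), 0.846% ± 0.028 (SD, n = 3) and 0.789% ± 0.053 (SD, n = 2). With Col2a1, the collagen II gene that alone took 15.9% to 21.3% of the reads, left out of the total, the means were 1.45%, 1.03% and 0.974%. Without the row named Rpl24 the libraries ran from 1.05% to 1.34% in Cre-Idh1, from 0.810% to 0.865% in the Cre controls and from 0.747% to 0.822% in the floxed controls. In such bulk samples, a change in the mix of cells and a change in RNA per cell cannot be told apart.

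**Figure D2:**
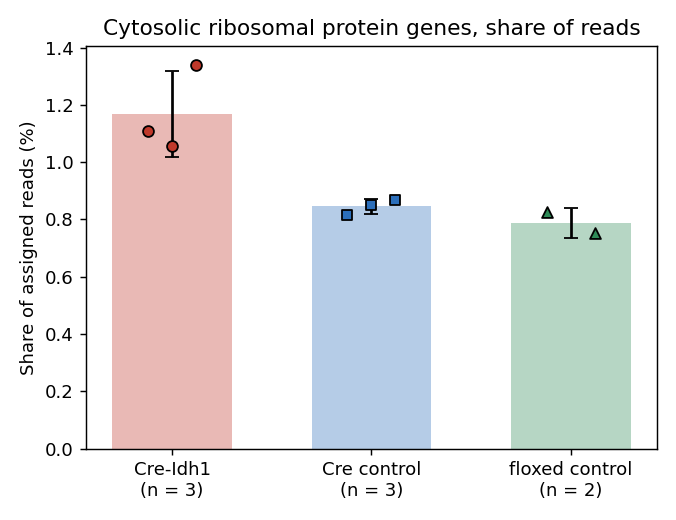
Share of all assigned reads (percent) taken by the 79 ribosomal protein rows in each group; points are libraries, bars are means and error bars 1 SD. The 3 Cre-Idh1 libraries lie at 1.06% to 1.34%, above all 5 controls.

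Against the Cre controls, 34 of the 78 members tested rose and 0 fell. Rpl3l was the 1 member not tested, since its counts were too low. The background was 9.8% of all 14851 genes tested risen and 9.39% fallen. The test was limma on log2(normalized count + 1) with Benjamini-Hochberg adjustment over all genes and a threshold of 0.05, and fold changes are on that log2 scale. The median log2 fold change of the members was 0.43, beside −0.01 over all genes, with 75 of 78 members above 0. At an unadjusted p under 0.05, 57 members were higher and 1, Rpl10, was lower. The share of all genes at that threshold is not given here, so these counts have no background. The edgeR quasi-likelihood test called 34 members risen, beside 1460 of 14851 genes, and DESeq2 called 49, beside 1800. Both called 0 members fallen, beside 1372 and 1653 genes.

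Against the floxed controls, 20 of 78 members rose and 0 fell, beside a background of 7.47% risen and 6.96% fallen of 15212 genes. The median log2 fold change was 0.47, beside 0.00 over all genes, with 73 of 78 members above 0. At an unadjusted p under 0.05, 53 members were higher and 1 was lower, again without a share of all genes beside them. EdgeR called 16 members risen, beside 1084 of 15212 genes, and DESeq2 called 44, beside 1550. Both called 0 members fallen, beside 1128 and 1537 genes. All 20 are among the 34, but the same Cre-Idh1 libraries stand in both comparisons. Without the row named Rpl24 the calls were still 34 and 20 and the medians 0.43 and 0.47.

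The counts of calls depended on single libraries, whereas the medians moved less. Against the Cre controls, leaving out Cre control replicate 1, 2 or 3 left 5, 10 and 5 of 78 members risen. Over all genes the same fits called 882 of 15214, 794 of 15205 and 661 of 15232 risen. Leaving out Cre-Idh1 replicate 1, 2 or 3 gave 36, 24 and 38 risen members. Beside these, 1136 of 15103, 1090 of 15189 and 1819 of 15115 genes rose. Rplp0, Rplp1, Rps15a, Rps20 and Rps24 rose in all 6 of these fits. Against the floxed controls, leaving out Cre-Idh1 replicate 1, 2 or 3 gave 18, 4 and 44 risen members. Beside these, 743 of 14907, 655 of 15020 and 1770 of 14967 genes rose. Leaving out floxed replicate 1 or 2 leaves 1 library in that group, so no counts of calls are given for these fits. The median log2 fold change of the members was then 0.51 and 0.42. The median log2 fold change of the members stayed between 0.32 and 0.50 against the Cre controls and between 0.35 and 0.54 against the floxed controls. A smaller control group leaves fewer libraries in the fit. With embryo sex as a covariate 15 of the 34 remained called, beside 977 of 14851 genes risen. Without the mean-variance trend 11 of 78 members were called against the Cre controls, beside 1156 of 14851 genes. Against the floxed controls that fit called 1 of 78 members, a smaller share than the 824 of 15212 genes.

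The libraries themselves show where the members stood. Relative to the mean of the 5 controls, the median log2 level over 77 members was 0.32, 0.36 and 0.71 in Cre-Idh1 replicates 1, 2 and 3. It was −0.08, 0.05 and 0.07 in the Cre controls and −0.00 and −0.04 in the floxed controls. Cre-Idh1 replicate 3 was the highest of the 8 libraries for 68 of the 77 members, while the other Cre-Idh1 libraries lay between it and the controls. Over all 15250 genes tested the same median was between −0.01 and 0.01 in every library. In 58 of 78 members all 3 Cre-Idh1 libraries lay above all 5 controls, beside 17.7% of all genes, and in 1 member (Rpl10) they lay below, beside 18.1%. Without Cre-Idh1 replicate 3 the median log2 fold change was 0.32 against the Cre controls and 0.35 against the floxed controls.

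**Figure D3:**
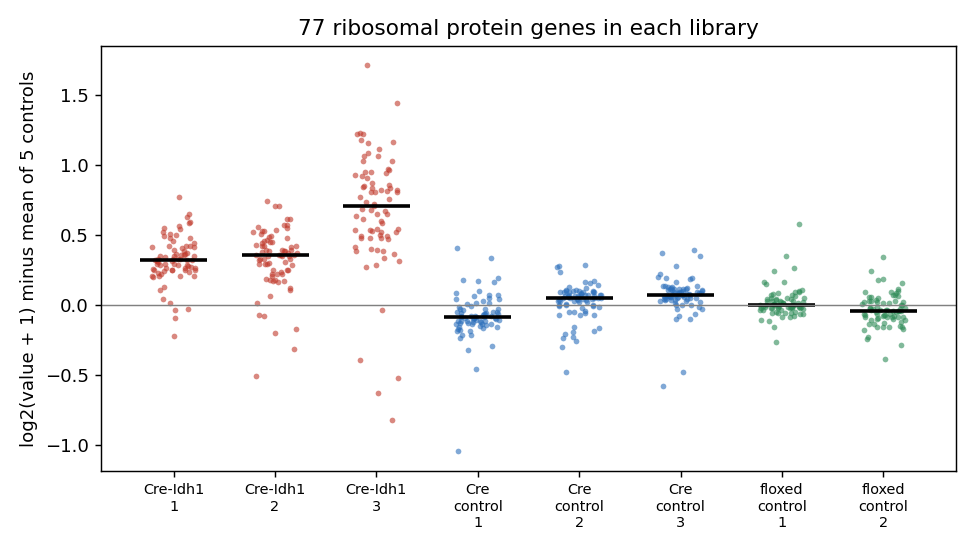
log2(normalized count + 1) of each of 77 ribosomal protein genes minus its mean in the 5 controls, by library; points are genes and black lines are medians. The medians are 0.32, 0.36 and 0.71 in the Cre-Idh1 libraries and between −0.08 and 0.07 in the controls.

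Members of both subunits were among those that rose. Without the row named Rpl24, 19 of 45 large-subunit members rose against the Cre controls (median log2 fold change 0.40) and 11 of 45 against the floxed controls (0.47). Of the small-subunit members 15 of 30 rose against the Cre controls (0.50) and 9 of 30 against the floxed controls (0.53). Over all genes 9.8% rose against the Cre controls and 7.47% against the floxed controls. The difference between subunits was not tested. Members with a control mean of at least 1000 rose in 30 of 48 cases against the Cre controls and 19 of 48 against the floxed controls. Those with a lower mean rose in 4 of 30 (13.3%), near the background, and in 1 of 30 (3.33%), below it. The median log2 fold changes of these 2 classes were 0.45 and 0.40, and 0.51 and 0.39 against the floxed controls. Members with at least 50% distinct windows rose in 21 of 43 cases against the Cre controls (median 0.44) and 14 of 43 against the floxed controls. Those with fewer rose in 13 of 35 (median 0.42) and 6 of 35. The row named Rpl24 is counted among the 48 and the 43.

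The stalk of the large subunit, formed by Rplp0 with Rplp1 and Rplp2, recruits the elongation factors, and all 3 of its genes rose in both comparisons. Rplp0, which anchors the stalk, gave 28004, 31818 and 34131 in the Cre-Idh1 libraries, 18274, 20193 and 20459 in the Cre controls and 19579.9 and 19176 in the floxed controls as normalized counts. The Cre-Idh1 libraries did not overlap the controls, and the lowest of them was above the highest control by more than the spread of the controls. Its log2 fold change was 0.67 ± 0.11 (SE) against the Cre controls (adjusted p = 0.00353) and 0.69 ± 0.12 against the floxed controls (adjusted p = 0.0118).

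Rplp1, an acidic stalk protein and the member with the most counts per coding kilobase, gave 22245, 21759 and 33277 in the Cre-Idh1 libraries, 14017, 14851 and 15559 in the Cre controls and 13956 and 12731 in the floxed controls. Replicates 1 and 2 of Cre-Idh1 were close to each other, replicate 3 stood well above them, and no control reached any of them. The log2 fold changes were 0.77 ± 0.16 (adjusted p = 0.0115) and 0.92 ± 0.19 (adjusted p = 0.0211). Rplp2, its partner, gave 8993, 8967 and 12391 in the Cre-Idh1 libraries, 6629, 7118 and 7469 in the Cre controls and 7004 and 6159.9 in the floxed controls. Again all 3 Cre-Idh1 libraries exceeded every control, with replicate 3 highest. On the log2 scale the differences were 0.50 ± 0.13 (adjusted p = 0.0299) and 0.61 ± 0.16 (adjusted p = 0.0464). Rpl12, which lies at the base of the stalk, gave 1386, 1367 and 1859.9 in the Cre-Idh1 libraries, 1097, 1024 and 1089.7 in the Cre controls and 1029 and 973 in the floxed controls, without overlap between Cre-Idh1 and controls. Its log2 fold change was 0.51 against the Cre controls (adjusted p = 0.0258) and 0.60 against the floxed controls (adjusted p = 0.0425).

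Rpl13a, a large-subunit protein that in human cells also acts in translational silencing once released from the ribosome, gave 26252, 28003 and 38441 in the Cre-Idh1 libraries, 17400.4, 19713 and 20148 in the Cre controls and 18848 and 18336 in the floxed controls. All Cre-Idh1 libraries were above all controls, by log2 fold changes of 0.68 ± 0.15 (adjusted p = 0.0145) and 0.71 ± 0.17 (adjusted p = 0.0328). Rpl13, another large-subunit protein, rose against the Cre controls (log2 fold change 0.64, adjusted p = 0.0383) and gave 0.59 with an adjusted p of 0.108 against the floxed controls. Without Cre-Idh1 replicate 3 the log2 fold changes of Rpl13 were 0.42 and 0.37. Rpl4, the member with the highest count, gave 46813, 50303 and 52306 in the Cre-Idh1 libraries, 34254, 39035 and 39595 in the Cre controls and 37423 and 37503 in the floxed controls. The groups did not overlap, but the distance was smaller than for the stalk genes, with log2 fold changes of 0.41 (adjusted p = 0.0288) and 0.41 (adjusted p = 0.051). Rpl32, a large-subunit protein whose mRNA is a common reference in expression studies, rose in both comparisons, with log2 fold changes of 0.54 (adjusted p = 0.0148) and 0.61 (adjusted p = 0.0257).

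Among the small-subunit genes, Rps28 had the highest called log2 fold change. Its counts were 1186, 1334 and 2220 in the Cre-Idh1 libraries, 755, 876 and 849 in the Cre controls and 769 and 834 in the floxed controls. Cre-Idh1 replicate 3 was far above replicates 1 and 2, and those were above every control. The log2 fold changes were 0.88 ± 0.21 (adjusted p = 0.0201) and 0.92 ± 0.25 (adjusted p = 0.0494). Without Cre-Idh1 replicate 3 they were 0.61 and 0.65.

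Rps20, a protein of the head of the small subunit, gave 4607, 4688 and 6383 in the Cre-Idh1 libraries, 2764, 3255 and 3199 in the Cre controls and 2975 and 3119 in the floxed controls. The controls fell in a narrow band that none of the Cre-Idh1 libraries entered. The log2 fold changes were 0.75 ± 0.14 (adjusted p = 0.00657) and 0.76 ± 0.15 (adjusted p = 0.0195). Rps19, the ribosomal protein most often mutated in the human anaemia named after Diamond and Blackfan, gave 4061, 4258 and 6784 in the Cre-Idh1 libraries, 2712, 3218 and 3055 in the Cre controls and 2793 and 2806 in the floxed controls. Replicate 3 of Cre-Idh1 was the highest, and the groups did not overlap. Its log2 fold changes were 0.71 ± 0.18 (adjusted p = 0.0264) and 0.81 ± 0.21 (adjusted p = 0.0454).

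Rps14, a platform protein tied to the anaemia of the human 5q- syndrome, rose against the Cre controls (log2 fold change 0.69, adjusted p = 0.0323) and gave 0.72 with an adjusted p of 0.0632 against the floxed controls. Rps10, a small-subunit protein also mutated in the anaemia named after Diamond and Blackfan, rose against the Cre controls with an adjusted p near the threshold (log2 fold change 0.64, adjusted p = 0.0468), and against the floxed controls it gave 0.62 (adjusted p = 0.106). Without Cre-Idh1 replicate 3 the log2 fold changes were 0.46 and 0.48 for Rps14 and 0.40 and 0.38 for Rps10. Rps4x, the X-linked copy of its protein, rose against both control groups (log2 fold changes 0.39, adjusted p = 0.036, and 0.42, adjusted p = 0.0498). Rpsa, first described as a laminin receptor, gave 264, 274 and 480.1 in the Cre-Idh1 libraries, 208, 207 and 231 in the Cre controls and 190.4 and 194 in the floxed controls. All its Cre-Idh1 libraries were higher, replicate 3 by far, and it did not pass the test (0.60, adjusted p = 0.0956, and 0.76, adjusted p = 0.104). Rps27a, which is made as a fusion with ubiquitin, gave 0.51 (adjusted p = 0.025) and 0.38 (adjusted p = 0.157).

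**Figure D4:**
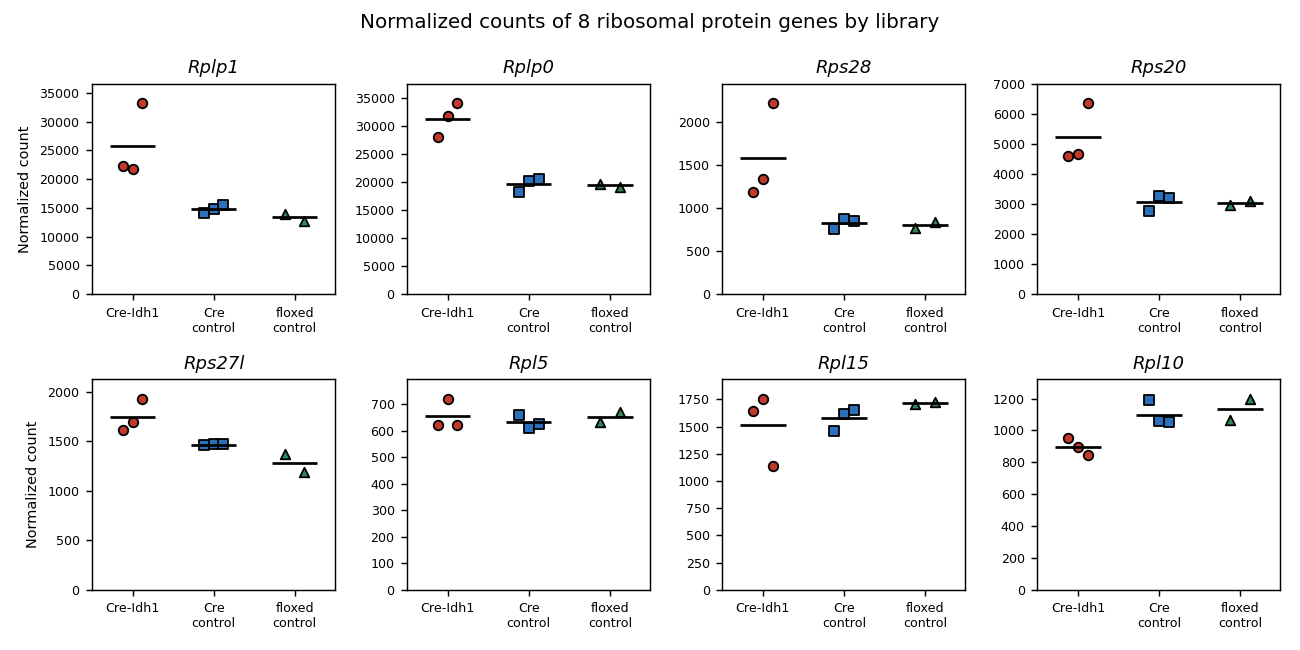
Normalized counts of 8 members by group; points are libraries and black lines are means, with the vertical axes starting at 0. Rplp1, Rplp0, Rps28 and Rps20 were higher in all 3 Cre-Idh1 libraries, Rpl5 and Rpl15 overlapped the controls, and Rpl10 was lower.

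Several members stood outside this pattern. Rpl10, an X-linked large-subunit protein that joins the ribosome late in its assembly, gave 954, 895 and 847 in the Cre-Idh1 libraries, 1189, 1056 and 1054 in the Cre controls and 1065 and 1201 in the floxed controls. Every Cre-Idh1 library was below every control. The log2 fold change was −0.29 ± 0.10 against the Cre controls (adjusted p = 0.0714) and −0.33 ± 0.12 against the floxed controls (adjusted p = 0.105), so it did not pass the test in either. In the authors' deposited table the adjusted p was 0.0438 and 0.0332. Over all fits its adjusted p ran from 0.0438 to 0.213 and from 0.0332 to 0.550. With 7.87% distinct windows, most of its sequence is shared with other annotated transcripts.

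Rpl15, needed early in large-subunit assembly, gave 1646, 1758 and 1133 in the Cre-Idh1 libraries, 1459.9, 1616 and 1649 in the Cre controls and 1712 and 1727 in the floxed controls. Cre-Idh1 replicate 3 was the lowest of the 8 libraries and replicate 2 the highest, so the groups overlapped. The log2 fold changes were −0.08 ± 0.16 (adjusted p = 0.747) and −0.21 ± 0.19 (adjusted p = 0.48).

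Rpl5 and Rpl11 form a particle with 5S ribosomal RNA that binds MDM2, the ubiquitin ligase of p53. Rpl5 gave 623, 722 and 624 in the Cre-Idh1 libraries, 661, 610.1 and 626 in the Cre controls and 632 and 672 in the floxed controls. The groups overlapped, and the log2 fold changes were 0.05 ± 0.11 (adjusted p = 0.772) and 0.01 ± 0.13 (adjusted p = 0.978). Rpl11 gave 289, 280.4 and 471 in the Cre-Idh1 libraries, 220, 234 and 235 in the Cre controls and 238 and 224 in the floxed controls. All Cre-Idh1 libraries were higher, mostly through replicate 3, and it did not pass the test (log2 fold changes 0.55 ± 0.20, adjusted p = 0.0878, and 0.54 ± 0.24, adjusted p = 0.174). Rps6, the substrate of the S6 kinases downstream of mTORC1, gave 159, 126 and 159 in the Cre-Idh1 libraries, 149, 113 and 169 in the Cre controls and 132 and 108 in the floxed controls. Its libraries overlapped, with log2 fold changes of 0.06 ± 0.20 (adjusted p = 0.865) and 0.30 ± 0.21 (adjusted p = 0.37).

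Some members had low counts. Rps16, whose tail reaches the decoding centre, gave 51.7, 55.9 and 110.5 in the Cre-Idh1 libraries, 31.9, 40.2 and 21.7 in the Cre controls and 37.1 and 37.7 in the floxed controls. Every Cre-Idh1 library was above every control, and its log2 fold change of 1.15 ± 0.36 against the Cre controls was the highest of all members but had an adjusted p of 0.0543. Against the floxed controls it was 0.85 ± 0.37 (adjusted p = 0.165). Rps27, at counts of 39.3, 29.4 and 32.9 in the Cre-Idh1 libraries, 29.7, 18.3 and 27.9 in the Cre controls and 33.2 and 22.8 in the floxed controls, overlapped between the groups. Its log2 fold changes were 0.43 (adjusted p = 0.353) and 0.28 (adjusted p = 0.604). Only 1.35% of its windows are distinct, and whether these counts could show a difference of the size seen in other members was not tested.

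Some members have a paralogue, and the pairs could be set side by side. Rpl22, a large-subunit protein, rose with log2 fold changes of 0.40 (adjusted p = 0.0204) and 0.40 (adjusted p = 0.0473). Its paralogue Rpl22l1, which can take its place, gave 1175, 1298 and 1074 in the Cre-Idh1 libraries, 1139.8, 1411 and 1248 in the Cre controls and 1235 and 1259 in the floxed controls, overlapping throughout, with −0.10 (adjusted p = 0.585) and −0.08 (adjusted p = 0.682). Rpl7 rose with 0.36 (adjusted p = 0.0332) and 0.42 (adjusted p = 0.0381), whereas the related Rpl7l1 gave −0.20 (adjusted p = 0.161) and −0.13 (adjusted p = 0.455). The difference between the genes of a pair was not tested. Rpl39, a short protein of the exit tunnel, rose with 0.58 (adjusted p = 0.0217) and 0.55 (adjusted p = 0.0293), and Rpl39l, known from the testis, was at 15.5, 6.86 and 5.31 in the Cre-Idh1 libraries, 4.4, 11 and 10.3 in the Cre controls and 15.6 and 13.1 in the floxed controls, too few to show a change. Rpl3, near the peptidyl transferase centre, gave 0.23 (adjusted p = 0.146) and 0.24 (adjusted p = 0.206), and its paralogue Rpl3l was not tested. Rpl36a gave 0.26 (adjusted p = 0.376) and 0.31 (adjusted p = 0.306), and Rpl36al gave 0.15 (adjusted p = 0.401) and 0.29 (adjusted p = 0.178).

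Rps27l, a paralogue of Rps27 that p53 is known to induce, gave 1616, 1699 and 1932 in the Cre-Idh1 libraries, 1459, 1471 and 1473 in the Cre controls and 1375 and 1186 in the floxed controls. The Cre-Idh1 libraries were above all controls by a small margin, and the floxed controls were the lowest. The log2 fold change was 0.25 ± 0.09 (adjusted p = 0.0968) against the Cre controls and 0.45 ± 0.13 (adjusted p = 0.0544) against the floxed controls.

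Between the controls no member changed. Of 78 members tested 0 were higher and 0 lower in the floxed controls than in the Cre controls, by limma, edgeR, DESeq2 and the authors' deposited table. The background was 0.0% of 14870 genes higher and 0.0134% lower. At an unadjusted p under 0.05, 2 members were lower and 0 higher, out of 1133 genes. The median log2 fold change of the members was −0.03, beside 0.01 over all genes. The most negative members were Rpl36 (−0.37), Rps6 (−0.24) and Rps27l (−0.20), and the most positive Rpl39l (0.77), Rps16 (0.29) and Rps23 (0.27), all given as values only. Groups of 3 and 2 libraries limit what this comparison can show.

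A list of ribosomal protein genes with names outside the rule held 7 rows that were tested and not named as pseudogenes. Of these, 2 rose and 0 fell against the Cre controls (median log2 fold change 0.27), beside the background of 9.8% risen, and 2 rose and 0 fell against the floxed controls (median 0.49), beside 7.47%. Gnb2l1, which encodes the small-subunit scaffold RACK1, gave 40964, 43574 and 51101 in the Cre-Idh1 libraries, 26418, 31569.5 and 32049.6 in the Cre controls and 29426 and 28094 in the floxed controls. All its Cre-Idh1 libraries were above all controls, and it rose against both control groups (log2 fold changes 0.59, adjusted p = 0.0126, and 0.65, adjusted p = 0.0188). Rps3a1, a small-subunit protein, rose against the Cre controls (0.56, adjusted p = 0.0265). A row named Rps4y2, whose ID GENCODE M21 names Rps4l and classes as a processed pseudogene, went the other way and was chosen after its values were seen. It gave 654, 597 and 757 in the Cre-Idh1 libraries, 1386, 1355 and 1378 in the Cre controls and 1421 and 1258 in the floxed controls, so the Cre-Idh1 libraries were all below the controls, with log2 fold changes of −1.04 ± 0.11 (adjusted p = 0.000584) and −1.003 ± 0.14 (adjusted p = 0.00611).

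Other mRNAs known for a terminal oligopyrimidine tract formed a list of 20 genes, with 5 elongation factors, 7 initiation factors and 8 others. Of these 8 rose and 0 fell against the Cre controls (median log2 fold change 0.30), beside 9.8% of all genes risen, and 6 rose and 0 fell against the floxed controls (0.28), beside 7.47%. Eef1a1, the factor that brings aminoacyl-tRNA to the ribosome, gave 69188, 74608 and 75483 in the Cre-Idh1 libraries, 46788, 53055 and 54986 in the Cre controls and 52056 and 49526 in the floxed controls. Its groups did not overlap, and it rose by 0.50 (adjusted p = 0.0155) and 0.52 (adjusted p = 0.0275) on the log2 scale. Eef1b2, its exchange factor, rose by 0.71 (adjusted p = 0.00613) and 0.72 (adjusted p = 0.0175). Eef2, the translocation factor, rose by 0.54 (adjusted p = 0.012) and 0.52 (adjusted p = 0.0365). Gas5, a non-coding host of small nucleolar RNAs, rose by 0.69 (adjusted p = 0.00426) and 0.72 (adjusted p = 0.0163). Eif3f (log2 fold change 0.55), Tpt1, Naca and Pabpc1 completed the 8, and Naca and Pabpc1 did not pass the test against the floxed controls.

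Genes of translation initiation and of ribosome assembly formed further lists. The backgrounds were again 9.8% and 7.47% risen, and 9.39% and 6.96% fallen. Of 35 initiation factors, the 7 with an oligopyrimidine tract included, 2 rose and 0 fell in each comparison, with medians of −0.00 and 0.03. These were Eif3f and Eif1, which guards start codon choice (log2 fold changes 0.57, adjusted p = 0.0107, and 0.61, adjusted p = 0.0259). Of 74 ribosome assembly genes 1 rose and 2 fell in each comparison, with medians of −0.04 and 0.05. Ltv1, a small-subunit assembly factor, gave 3115, 3155 and 2999.7 in the Cre-Idh1 libraries, 5918, 6378 and 6474 in the Cre controls and 6211 and 6125 in the floxed controls. Its Cre-Idh1 libraries stood at about the same level as one another and far below every control, and it fell in both comparisons (log2 fold changes −1.02 ± 0.08, adjusted p = 0.000174, and −0.997 ± 0.09, adjusted p = 0.00194). Taf1b, a subunit of the selectivity factor of RNA polymerase I, also fell (−0.75, adjusted p = 0.00571, and −0.84, adjusted p = 0.0176). Imp3, part of the small-subunit processome, rose (0.56, adjusted p = 0.0146, and 0.65, adjusted p = 0.0265).

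Among 33 regulators of ribosome making tested, 3 rose and 1 fell against the Cre controls, and 2 rose and 0 fell against the floxed controls. The shares risen, 9.09% and 6.06%, were near the backgrounds of 9.8% and 7.47%. Over all genes 9.39% and 6.96% fell. Myc gave 5381, 6283 and 6072 in the Cre-Idh1 libraries, 2614, 2855 and 2996 in the Cre controls and 2800.2 and 2457 in the floxed controls. The lowest Cre-Idh1 library was well above the highest control, and the log2 fold changes were 1.07 ± 0.09 (adjusted p = 0.000299) and 1.17 ± 0.11 (adjusted p = 0.00208). Akt1s1, which encodes the mTORC1 inhibitor PRAS40, rose in both comparisons (0.51, adjusted p = 0.0129, and 0.53, adjusted p = 0.0309). Sesn3, a sestrin that restrains mTORC1, rose against the Cre controls (0.55, adjusted p = 0.0178). Tsc2, a brake on mTORC1, fell against the Cre controls (−0.29, adjusted p = 0.0336) and gave −0.29 (adjusted p = 0.0913) against the floxed controls. Mtor itself gave −0.07 (adjusted p = 0.59) and 0.02 (adjusted p = 0.906), and Larp1 gave 0.09 (adjusted p = 0.511) and 0.01 (adjusted p = 0.966).

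The proteins of the mitochondrial ribosome, made from a separate set of nuclear genes, served as a parallel family. Of 75 genes 3 rose and 4 fell against the Cre controls, with a median log2 fold change of −0.00, and 2 rose and 0 fell against the floxed controls, with a median of 0.03. Their shares of risen genes, 4.0% and 2.67%, were below the backgrounds of 9.8% and 7.47%. Over all genes 9.39% and 6.96% fell. Non-coding rows annotated as pseudogenes of cytosolic ribosomal protein genes summed to 1866 to 2118 normalized counts in the Cre-Idh1 libraries, 1282 to 1405 in the Cre controls and 1383 to 1429 in the floxed controls. Of 15 tested against the Cre controls 3 rose (median 0.52), and of 16 tested against the floxed controls 0 rose (median 0.68). Reads of a member and of its copies cannot be told apart where the sequence is shared.

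Depth was 31860422 to 44988540 assigned reads per library. Idh1 itself gave 3549, 3948 and 3465 in the Cre-Idh1 libraries, 3624, 3647 and 3991 in the Cre controls and 2263 and 2452 in the floxed controls, with both floxed controls below every other library, and these counts do not separate the mutant from the normal allele. The 12 chondrocyte markers summed to 8259760 normalized counts or more in each library. Of these 0 rose and 2 fell against the Cre controls, beside 9.8% of all genes risen and 9.39% fallen. By Xist and Y-linked genes, 1 of the Cre-Idh1 libraries (replicate 1), 2 of the Cre controls (replicates 1 and 3) and 0 of the floxed controls were female. The 11 macrophage markers in the table summed to 5343, 2393 and 2252 normalized counts in Cre-Idh1 replicates 1, 2 and 3. They summed to 1536 to 2544 in the Cre controls and 1673 to 1900 in the floxed controls. Against the Cre controls 4 of 9 tested rose (median log2 fold change 0.78), beside 9.8% of all genes. Against the floxed controls 5 of 11 rose (median 1.02), beside 7.47%. The 9 skeletal muscle markers summed to 486 to 641, 1569 to 1657 and 1955 to 2203. Tnnt3 made up most of the control sums (means 217, 1433 and 1701), while Acta1 went the other way (178, 45 and 119). Against the Cre controls 1 of 4 tested rose and 1 fell, with 2 above 0, beside 9.8% of all genes risen and 9.39% fallen. The 9 endothelial markers summed to 890.3 to 1505, 847 to 934 and 749 to 937, with Erg the largest (means 526, 573 and 490). Their median log2 fold changes were 0.91 (8 of 9 above 0, 1 risen) and 0.80 (9 of 9 above 0, 0 risen). Of the keratinocyte markers Dsp and Krt16 were in the table, Krt5, Krt14, Krt15 and Trp63 were not, and the sums were 643 to 939, 216 to 272 and 175 to 278. Dsp and Krt16 both rose in each comparison, beside 9.8% and 7.47% of all genes. Their log2 fold changes were 1.17 and 4.47 against the Cre controls and 1.28 and 4.58 against the floxed controls. The 6 hypertrophic chondrocyte markers summed to 49203 to 74597 in the Cre-Idh1 libraries, 80584 to 91129 in the Cre controls and 77071 to 136122 in the floxed controls. Every Cre-Idh1 sum was thus below every control. Of the 6, 2 fell and 0 rose in both comparisons, beside 9.39% and 6.96% of all genes fallen. The 8 erythroid markers in the table summed to 2605 to 15517, 3093 to 17161 and 7123 to 11031, with 0 called. The 10 perichondrium and fibroblast markers summed to 104588 to 156773, 91181 to 149565 and 131217 to 160682. Of these 2 fell and 0 rose in both comparisons, beside the same 9.39% and 6.96% of all genes fallen. The part of other cell types in the rise of the ribosomal protein genes was not tested.

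Short mRNAs as a class also lay slightly higher in Cre-Idh1. Other genes with an mRNA under 1000 bases had a median log2 fold change of 0.13 against the Cre controls and 0.14 against the floxed controls, and 7.47% and 5.59% of them rose. The 53 members of that length had medians of 0.43 and 0.47. By GC content, other genes ran from −0.16 under 45% to 0.09 at 55% or more against the Cre controls, and the members from 0.05 (6 genes) to 0.46 (12 genes) in the same classes. The part of length and GC content in the members' values was not tested.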

How the data were processed

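Cells were freed from the sternum by enzyme digestion and stranded mRNA libraries were made with a KAPA kit, per the labels' protocols. Per the submitters' processing notes, reads were handled with DESeq2, HTSeq, STAR, cutadapt and Trim Galore. The build, the options and any use of strand or of reads that fit several places were not given in the sources used here. The signal analysed is the authors' deposited normalized expression value, called the normalized count. In every library 100% of values were whole multiples of 1 value within 0.001, so whole reads were recovered, and edgeR and DESeq2 were run on them as alternatives. The deposited Wald score was not used. The deposited log2 fold changes and the deposited p-values are the authors' own and are named where used.

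The main test was limma 3.58.1 (two-sided, with its trend option), fitted to log2(value + 1) for 1 pair of groups at a time. A gene was tested if it reached 10 in n libraries, n being the size of the smaller group. Adjustment was by Benjamini-Hochberg over all genes, at 0.05. It was tested on simulated data. Alternatives changed the scaling, pseudocount, filter, test, libraries, covariates and threshold. Mature mRNA models and pseudogene classes came from GENCODE M21, and start sites from RefSeq on GRCm38.p6. Named genes are members with a stated role or a paralogue, up to 10 called members a direction with the highest absolute change (3 as values where none was called), the 5 highest and 5 lowest per coding kilobase, and called genes of each list; Rpl4, Rpl9, Rps15a, Rps24, Rps4y2, Eef1a1, Eef2, Tpt1, Naca, Pabpc1, Mtor and Larp1 were named after their values were seen. A few genes that the rule names are not reported here. The members, lists and rules were chosen with earlier results of these data known.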

Additional observations from a re-analysis of the deposited data

How the results depend on the processing

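No alternative reversed the direction of a called result. Against the Cre controls the count of risen members was 34, but 11 without the mean-variance trend, 15 with embryo sex as a covariate, 53 in the authors' deposited table and 5 to 38 with 1 replicate left out. Over all genes these counts were, in the same order, 1455, 1156, 977, 1917 and 661 to 1819. Against the floxed controls the count of risen members was 20, but 1 without the trend and 41 at an adjusted p under 0.1. It was 43 in a fit of all 8 libraries, 44 by DESeq2 and 51 in the authors' deposited table. Fits without a floxed replicate leave 1 library in that group and get no count here. With 1 Cre-Idh1 replicate left out the count was 4 to 44. Over all genes these counts were, in the same order, 1137, 824, 1810, 1747, 1550, 2025 and 655 to 1770. The count of fallen members was 0, but 1 (Rpl10) against the Cre controls in the authors' deposited table and at 0.1, and 1 against the floxed controls in that table and in the fit of all 8 libraries. Over all genes 1394 and 1059 fell in the main fits. In the alternatives just named 1871, 2064, 2070 and 1849 genes fell, in the same order. The median log2 fold change of the members ran from 0.32 to 0.50 and from 0.35 to 0.54 over all alternatives. Between the controls the calls were 0 throughout, and the median was −0.092 under total read scaling. The mean share of reads was 1.45%, 1.03% and 0.974% without Col2a1 in the total, and 1.31%, 0.955% and 0.889% with the ribosomal proteins outside the rule. The cause of these differences was not tested. A higher threshold calls more genes by definition. A fit without a library has fewer samples, and without Cre-Idh1 replicate 3 the risen members were 38 and 44. No paired analysis was possible because replicate numbers follow the order of the records and pair no libraries. Control means were under 100 for 10 members.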
